A study of Mus musculus with 2 samples.

Results

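The genes described are 10 subunits of the Polycomb repressive complexes in the mouse embryonic midbrain. They are Ezh1, Ezh2, Eed, Suz12 and Jarid2 of Polycomb repressive complex 2 (PRC2), and Ring1, Rnf2, Bmi1, Cbx2 and Cbx8 of Polycomb repressive complex 1 (PRC1). They were taken by gene name from the 55536 annotated genes of the GENCODE M21 tables, and all 10 were found. Polyadenylated RNA was sequenced from whole midbrain of B6NCrl mouse embryos at 12.5 days of gestation, and the tissue was labelled healthy. Replicate 1 pooled 120 embryos and replicate 2 pooled 88, males and females together in each. Each library was made from 10 ng of RNA by oligo-dT priming and tagmentation, and carried ERCC spike-in RNAs. There was 1 group of 2 libraries, so the data hold no contrast between conditions and allow no test.

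PRC2 adds methyl groups to a lysine of histone H3 that marks silent genes, and PRC1 attaches ubiquitin to histone H2A and compacts chromatin. Canonical PRC1 holds a CBX protein that reads the PRC2 mark, whereas variant PRC1 holds RYBP or YAF2 in its place. Both complexes keep developmental regulators of other regions and lineages silent, and in the developing brain they are known for setting the timing of progenitor divisions and of the neuron to glia switch.

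Total expected counts, the estimated reads assigned to a gene, ran from 30274342 to 38421860 per library. The libraries differed by more than sampling noise (chi-square per degree of freedom 8.44 over 20659 genes), so they are separate libraries. Levels are in TPM, a transcript abundance scaled by length and by the library total, which allows genes to be compared within a library. Of the midbrain markers 11 of 12 reached 1 TPM in both libraries, from Otx2 at 143 down to Pax2, the exception, at 0.25. All 6 progenitor markers (Slc1a3 at 40.3 to Vim at 919), all 6 cell cycle markers (Mki67 at 40.9 to Top2a at 238) and all 6 neuron markers (Elavl3 at 47.3 to Tubb3 at 872) were detected. RNA of other cell types was present too. All 6 blood markers (up to Hbb-y at 6764), all 6 mesenchyme markers (Twist1 at 9.02 to Col3a1 at 450), all 5 endothelial markers (Tek at 7.26 to Cldn5 at 28.6) and 4 of 5 microglia markers (Csf1r at 11.3, with Ptprc the exception at 0.95) were detected. In such bulk tissue, fewer cells of a type and less RNA per cell cannot be told apart.

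All 10 Polycomb subunits were detected, here meaning at least 1 TPM in both libraries. Their median level was 44.5 TPM, against 22.2 TPM for the 13083 detected protein-coding genes out of 22028. Ezh2 was the highest member at 163 ± 9.26 TPM (mean ± SD, n = 2, as for all levels below), above 95.9% of protein-coding genes. Rnf2 followed at 102 ± 2.48, Cbx2 at 64.6 ± 1.55, Eed at 59.3 ± 2.09, Jarid2 at 57.7 ± 0.0707, Bmi1 at 31.2 ± 3.83, Suz12 at 26.1 ± 0.219 and Ring1 at 20.2 ± 1.34. Cbx8 at 10.6 ± 1.82 and Ezh1 at 10.4 ± 0.841 were lowest, above 59.0% and 58.8% of protein-coding genes. Of the 9 pairs of neighbours in this order, the libraries overlapped in 1, Cbx8 and Ezh1. Eed and Jarid2 were separated by almost nothing, since Eed's lower library stood at 57.8 TPM and Jarid2's higher one also at 57.8.

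**Figure D1:**
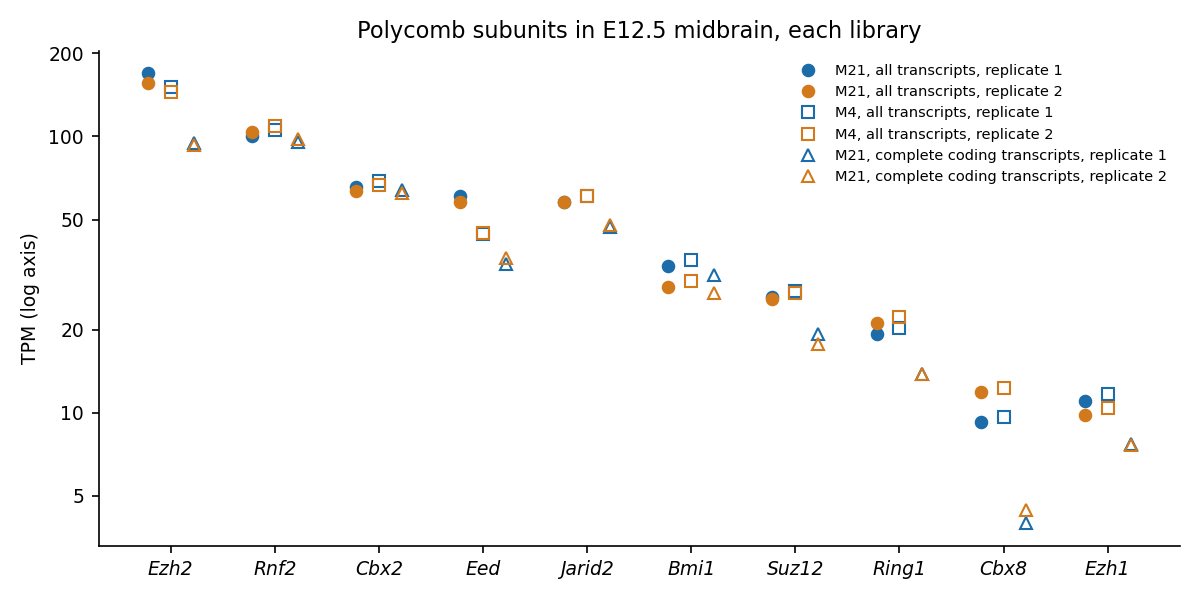
TPM of the 10 subunits in each library on a log axis, from the M21 gene tables (circles), the M4 gene tables (squares) and the sum of complete coding transcripts in M21 (triangles). Circles fall from Ezh2 at 169 and 156 TPM to Cbx8 and Ezh1 near 10, and Ezh2 and Rnf2 come together in the triangles.

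Of the catalytic subunits of PRC2, Ezh2 far outweighed Ezh1. EZH2 is the methyltransferase of dividing cells, and EZH1 is its paralog, better known from cells that have stopped dividing. Ezh2 (ENSMUSG00000029687.16, mm10 chromosome 6, 47530139 to 47595341, minus strand) stood at 169 TPM in replicate 1 and 156 in replicate 2. Ezh1 (ENSMUSG00000006920.14, chromosome 11, 101191115 to 101226463, minus strand) stood at 11.0 and 9.84. The libraries of the 2 genes were far apart. Ezh2 was 15.4 and 15.9 times Ezh1, a log2 ratio of 3.97 ± 0.034 (SD, n = 2), and took 94.0% ± 0.135 of their summed TPM.

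Part of the Ezh2 level was assigned to transcripts annotated without the full coding sequence. The annotated transcript with the full coding sequence, Ezh2-201 (2787 bases, 20 exons), took 36.8% and 41.6% of the gene's TPM. Ezh2-202 took 17.7% and 16.2%, Ezh2-205 (866 bases, with a coding sequence tagged incomplete) 16.9% and 17.7%, and Ezh2-213 (500 bases, annotated as a retained intron) 15.2% and 11.3%. Short transcripts weigh more in TPM than in reads: those under 1000 bases took 37.9% and 34.0% of Ezh2 TPM but 12.9% and 11.4% of its expected counts. Complete coding transcripts alone, Ezh2-201 and Ezh2-202 foremost, summed to 94.7 and 93.5 TPM, and the same sum for Ezh1 was 7.69 and 7.61. On that measure the log2 ratio of Ezh2 over Ezh1 was 3.62 ± 0.0021.

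Ezh2-202 lacks an exon of 126 bases, or 42 codons, which lies inside the coding sequence (mm10 chromosome 6, 47541845 to 47541970) and encodes part of the cysteine-rich CXC region before the catalytic SET domain. It is shown because it is the coding difference between the most abundant Ezh2 transcripts. Ezh2-202 is also annotated without untranslated ends (2112 of its 2115 bases are coding). A smaller difference is a stretch of 27 bases (chromosome 6, 47576536 to 47576562) that Ezh2-201 and Ezh2-202 hold and that Ezh2-204 and Ezh2-205 lack. Ezh2-204 took 1.23% and 2.04% of Ezh2 TPM. In both sequences, from the M21 transcripts and on the sense strand, capitals mark the bases that differ and lower case the bases joined to them in Ezh2-201.
Ezh2 exon missing from Ezh2-202: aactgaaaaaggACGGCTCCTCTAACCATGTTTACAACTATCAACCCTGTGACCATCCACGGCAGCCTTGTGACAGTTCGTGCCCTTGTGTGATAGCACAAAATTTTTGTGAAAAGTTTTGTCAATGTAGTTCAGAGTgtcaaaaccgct
Ezh2 stretch missing from Ezh2-204: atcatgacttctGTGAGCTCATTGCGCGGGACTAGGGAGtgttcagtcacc

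Ezh1 was the only member whose leading transcript differed between the libraries. Ezh1-202 took 47.4% of Ezh1 TPM in replicate 1 and 0.00% in replicate 2, while Ezh1-203 took 4.78% and 62.3%. Both have 21 exons, and they differ by 13 bases at the start of the first exon (chromosome 11, 101226451 to 101226463) and by 1 base at the other end. Together they took 52.2% and 62.3%. The deposited bounds of Ezh1-202 were 1.20 to 5.60 TPM in replicate 1 and reached 5.54 in replicate 2, and those of Ezh1-203 were 0.0351 to 4.25 and 0.127 to 5.81. The bounds of each transcript thus overlapped between the libraries, so the swap was not resolved by the estimates. Ezh1-201, with 15 exons and a shorter coding sequence of 1737 bases, took 17.5% and 15.0%, and the noncoding Ezh1-209 took 13.8% and 11.9%.

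Of the noncatalytic core subunits, Eed stood above Suz12. EED binds the methylated lysine and stimulates the enzyme, and SUZ12 is the scaffold that holds the complex together. Eed (ENSMUSG00000030619.9, chromosome 7, 89954654 to 89980983, minus strand) stood at 60.8 TPM in replicate 1 and 57.8 in replicate 2. Suz12 (ENSMUSG00000017548.15, chromosome 11, 79993106 to 80034123, plus strand) stood at 26.2 and 25.9. Neither gene's libraries came near the other's. Eed was 2.32 and 2.23 times Suz12, and Ezh2 was 2.79 and 2.70 times Eed, so the 3 core subunits were not at equal RNA levels in either library.

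Eed was the member whose level moved most with the annotation. Against the older M4 annotation Eed stood at 44.5 and 44.7 TPM, and M21 was higher by 0.41 on the log2 scale. The median detected coding gene was lower in M21 by a log2 value of -0.07. In all, 9.86% of 12898 coding genes departed from that median by 1.3-fold or more in both libraries, a limit chosen after seeing the data, and Eed was the 1 member of 10 to do so. Expected counts of Eed hardly differed (1563 and 2003 in M21, 1510 and 1936 in M4), while its effective length in replicate 1 was 1378 bases in M21 and 1917 in M4. M21 holds Eed-205, a transcript of 767 bases with an incomplete coding sequence that is not in the M4 tables, at 27.0% and 21.7% of Eed TPM. Eed-201 (2067 bases, 12 exons) took 56.7% and 63.0%. Its complete coding level was 34.4 and 36.4 TPM, below that of Jarid2 at 47.0 and 47.8. Ezh2 was next in annotation dependence, higher in M21 by 0.14.

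Suz12-201, with the full coding sequence (4373 bases, 16 exons), took 73.7% and 59.9% of Suz12 TPM, and the retained intron transcript Suz12-203 took 19.2% and 22.9%. Suz12-206 was estimated at 0.00% in replicate 1 and 8.55% in replicate 2, with deposited bounds of 0.0018 to 3.82 and 0.434 to 5.93 TPM that overlap. It was singled out after its values were seen, because it lacks a coding exon of 69 bases, or 23 codons (chromosome 11, 79999057 to 79999125). The exon is in capitals, between the exon ends joined to it in Suz12-201.
Suz12 exon missing from Suz12-206: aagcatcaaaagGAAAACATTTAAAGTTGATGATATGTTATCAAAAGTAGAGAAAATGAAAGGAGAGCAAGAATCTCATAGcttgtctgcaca

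Jarid2, an accessory subunit that recruits PRC2 to chromatin and tunes its activity, was level with Eed in M21. With M4 it stood above Eed, at 60.65 and 60.66 TPM against 44.5 and 44.7, as it did with complete coding transcripts only. In M21, Jarid2 (ENSMUSG00000038518.15, chromosome 13, 44729474 to 44921643, plus strand) stood at 57.7 TPM in replicate 1 and 57.8 in replicate 2, the smallest spread of any member. Jarid2-208 (5997 bases) took 70.6% and 72.8% of its TPM, and Jarid2-211, whose coding sequence is tagged incomplete, 10.9% and 7.99%. Jarid2-208, Jarid2-201 and Jarid2-210 share 3702 coding bases and differ in where they start and end. They end at 44921643, 44920995 and 44920108, so their shares do not measure the use of the starts alone. Jarid2-208 starts at 44731271, whereas Jarid2-201, at 8.76% and 7.34%, starts at 44730823 and Jarid2-210, at 2.07% and 2.59%, at 44730774. RefSeq (GRCm38.p6) has promoter windows at the starts of Jarid2-208 and Jarid2-210. The 250 bases before each are shown to set the start of the leading transcript beside an upstream one. CG pairs are in capitals, and there are 22 and 23 of them. The first window is chr13:44731021-44731270 and the second chr13:44730524-44730773, both on the plus strand and outside every annotated exon.
Jarid2-208 promoter: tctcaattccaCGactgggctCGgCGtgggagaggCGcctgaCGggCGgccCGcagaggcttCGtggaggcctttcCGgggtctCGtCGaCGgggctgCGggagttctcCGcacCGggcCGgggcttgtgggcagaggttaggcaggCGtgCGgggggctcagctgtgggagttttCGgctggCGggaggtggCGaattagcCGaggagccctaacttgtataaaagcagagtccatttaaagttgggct
Jarid2-210 promoter: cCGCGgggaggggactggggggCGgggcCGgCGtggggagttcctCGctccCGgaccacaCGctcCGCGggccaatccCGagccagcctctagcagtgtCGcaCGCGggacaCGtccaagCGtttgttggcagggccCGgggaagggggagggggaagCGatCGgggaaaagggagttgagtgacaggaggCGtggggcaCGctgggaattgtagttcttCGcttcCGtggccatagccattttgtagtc

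The members' promoters were rich in CG pairs. RefSeq held 10 windows of 300 bases (250 before and 50 after a start) for 9 of the 10 members, none of them Cbx2. They held 17 to 41 CG pairs each, from Eed to Suz12, with a median of 24 against 7 over all 32851 windows, and 31.4% of all windows held as many as the lowest of them.

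Of the PRC1 ubiquitin ligases, Rnf2 stood well above Ring1. RNF2 (RING1B) and RING1 (RING1A) are the alternative catalytic subunits of every PRC1. Rnf2 (ENSMUSG00000026484.13, chromosome 1, 151458004 to 151500955, minus strand) stood at 100.4 TPM in replicate 1 and 104 in replicate 2. Ring1 (ENSMUSG00000024325.8, chromosome 17, 34020792 to 34024680, minus strand) stood at 19.3 and 21.2. The libraries did not approach each other, and Rnf2 was 5.21 and 4.91 times Ring1, a log2 ratio of 2.34 ± 0.060. Rnf2 took 83.5% ± 0.577 of their summed TPM. Rnf2-201 alone (3160 bases, 7 exons) held 94.2% and 93.9% of Rnf2 TPM. Ring1-201, its only coding transcript, held 71.8% and 65.1%, and the retained intron transcript Ring1-203 (2552 bases) 19.4% and 15.9%. Unlike the short transcripts of Ezh2, Ring1-203 also took a like share of the expected counts, 25.1% and 22.9%. Counting complete coding transcripts only, the log2 ratio of Rnf2 over Ring1 was 2.81 ± 0.026, and Rnf2 at 95.8 and 97.9 TPM then stood just above Ezh2.

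Bmi1 (PCGF4), the PCGF subunit through which canonical PRC1 is known to keep Cdkn2a silent in neural stem cells, was the member with the largest difference between the libraries beyond counting error. Bmi1 (ENSMUSG00000026739.13, chromosome 2, 18677018 to 18686629, plus strand) stood at 33.9 TPM in replicate 1 and 28.5 in replicate 2. Pcgf2 (MEL18), its closest paralog, stood at 15.2 and 12.9. Both genes were higher in replicate 1, and their ratio hardly moved, at 2.23 and 2.21, a log2 ratio of 1.15 ± 0.0078. Among the 6 PCGF genes, compared after their values were seen, Bmi1 took 22.1% ± 1.83 of the summed TPM, beside Pcgf1 at 22.9% ± 1.72 and Pcgf3 at 20.7% ± 0.718, and the libraries of each overlapped those of Bmi1. Bmi1-201 held 82.0% and 82.3% of Bmi1 TPM. Bmi1-202, with another first exon and the same 972 coding bases, held 11.2% and 12.8%.

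Cbx2 stood well above Cbx8. Their chromodomains bind the PRC2 mark, and CBX2 also compacts nucleosomes. Cbx2 (ENSMUSG00000025577.7, chromosome 11, 119022962 to 119031270, plus strand) stood at 65.7 TPM in replicate 1 and 63.5 in replicate 2, in each case just above its own deposited upper bound (65.4 in replicate 1). Cbx8 (ENSMUSG00000025578.9, chromosome 11, 119036305 to 119040969, minus strand) stood at 9.28 and 11.9. Cbx2 was 7.08 and 5.36 times Cbx8, a log2 ratio of 2.62 ± 0.284. The genes lie next to each other, with 5034 bases between them, so these neighbours were at unlike levels. Cbx6, a further CBX gene compared after its values were seen, was lower than Cbx2, which was 1.89 and 1.77 times Cbx6.

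By estimated TPM, Cbx8 was also the 1 member whose leading transcript is noncoding. Cbx8-202, a processed transcript of 789 bases, took 57.1% and 49.9% of Cbx8 TPM, and the coding Cbx8-201 (3580 bases) took 42.9% and 37.6%. The deposited bounds were 2.92 to 6.66 and 3.77 to 7.69 TPM for Cbx8-202. Those of Cbx8-201, at 3.31 to 4.38 and 3.84 to 4.84, overlapped them in each library, so this order was not resolved. By expected counts the order was the other way round, 20.9% and 20.2% for Cbx8-202 against 79.1% and 76.6% for Cbx8-201. Restricted to coding transcripts, Cbx8 stood at 3.98 and 4.45 TPM and the log2 ratio of Cbx2 over Cbx8 was 3.91 ± 0.140. Cbx8-202 retains an intron of 95 bases (chromosome 11, 119039999 to 119040093) that Cbx8-201 splices out. It is shown in capitals, since it separates the 2 forms; it begins with gt and ends with ag. Cbx2-201, by contrast, held 97.3% and 98.1% of Cbx2 TPM.
Cbx8 intron kept in Cbx8-202: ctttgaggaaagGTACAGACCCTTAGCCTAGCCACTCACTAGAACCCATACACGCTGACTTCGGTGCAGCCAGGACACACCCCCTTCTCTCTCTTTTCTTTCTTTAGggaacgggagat

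**Figure D2:**
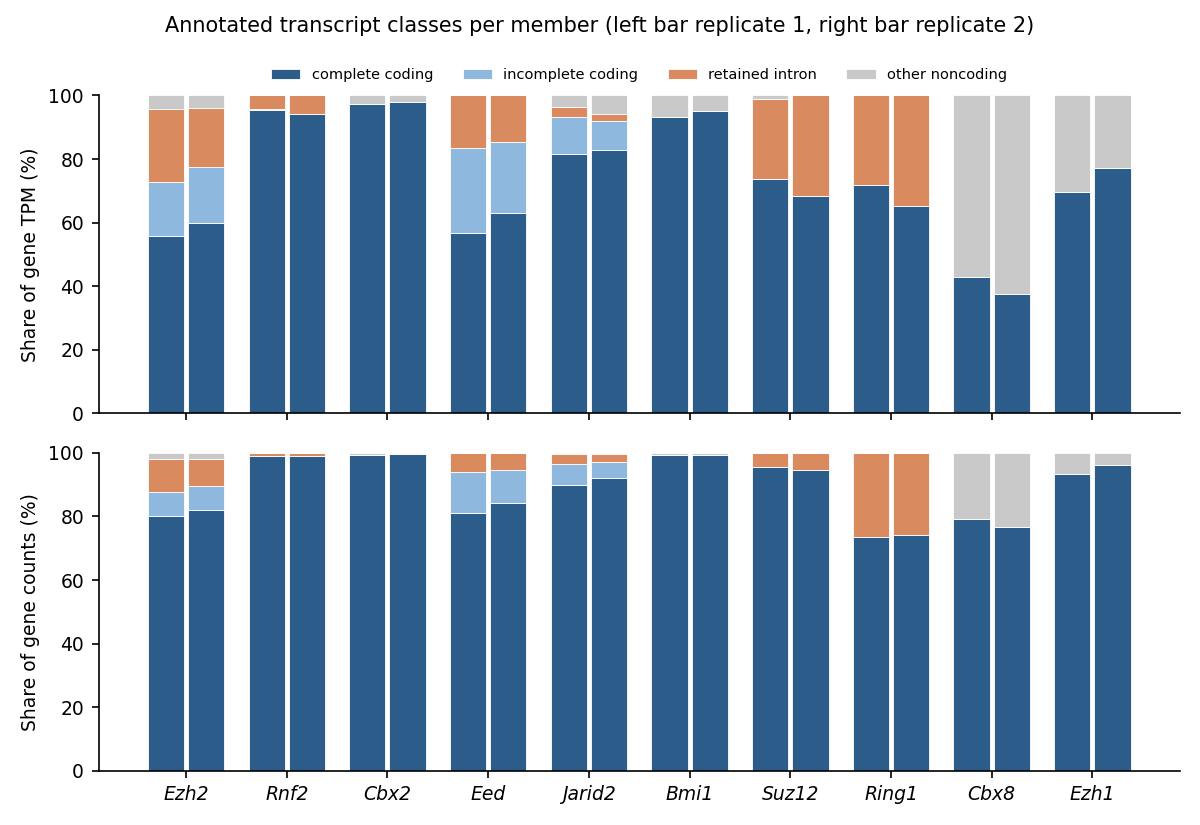
Share of each member's TPM (upper) and expected counts (lower), in percent, in complete coding, incomplete coding, retained intron and other noncoding transcripts, replicate 1 left and replicate 2 right. Cbx8 has 42.9% and 37.6% of its TPM but 79.1% and 76.6% of its counts in complete coding transcripts, while Cbx2 and Rnf2 are almost wholly coding on both scales.

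Across the 10 members, 9 had the same leading transcript in both libraries, and for 8 of these it was a coding one. The exception was Cbx8, where the order of the transcripts was not resolved. Of the members, 5 overlap other genes, and the strand setting is among the details not given in the sources used here. Rnf2 shares 158 bases with Trmt1l on the opposite strand (52.0 and 52.3 TPM), Suz12 overlaps the noncoding Gm26563 (4.59 and 4.04 TPM), Ezh2 overlaps Gm26625 (1.32 and 1.17 TPM) and Eed overlaps E230029C05Rik over 261 bases (3.21 and 3.29 TPM). Each of these stood below its member, and the other 4 overlapping genes, Jarid2's among them, had at most 2.12 TPM. No other gene overlaps Ezh1, Ring1, Bmi1, Cbx2 or Cbx8.

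The other genes of the pathway were nearly all present. Of 41 other Polycomb genes in 4 lists, 40 were detected, with a median of 27.6 TPM. Of 9 other PRC2 genes 8 were detected, from Phf19, an accessory subunit with a Tudor domain, at 2.65 ± 0.799 TPM to Rbbp4, a histone chaperone shared with other complexes, at 397 ± 10.3. The exception was Ezhip, an inhibitor of PRC2 that M21 lists as AU022751, with 0 counts in both libraries. For it 3 counts would give 0.0837 and 0.0663 TPM, and the deposited upper bounds were 0.129 and 0.103 TPM. Among the Polycomb-like accessory genes, Mtf2 took 90.0% ± 0.276 of the TPM summed over Mtf2, Phf1 and Phf19. All 9 other canonical PRC1 genes were detected, from Scml2 at 2.31 ± 0.389 to Phc2, a polyhomeotic subunit whose SAM domain joins complexes together, at 111 ± 8.94. Phc2 took 76.2% ± 0.128 of the TPM of the 3 polyhomeotic genes.

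All 16 genes of variant PRC1 were detected, and their median was 28.1 TPM. The lowest was Bcorl1, a BCOR paralog, at 5.79 ± 0.799 TPM, and the highest was Kdm2b, whose zinc finger binds unmethylated CG pairs, at 86.3 ± 1.89. All 7 genes listed for a part in the removal of Polycomb marks were detected as well, with a median of 28.7 TPM. Asxl3 was lowest at 5.05 ± 0.0990 and Bap1, the H2A deubiquitinase, highest at 97.1 ± 0.0707.

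**Figure D3:**
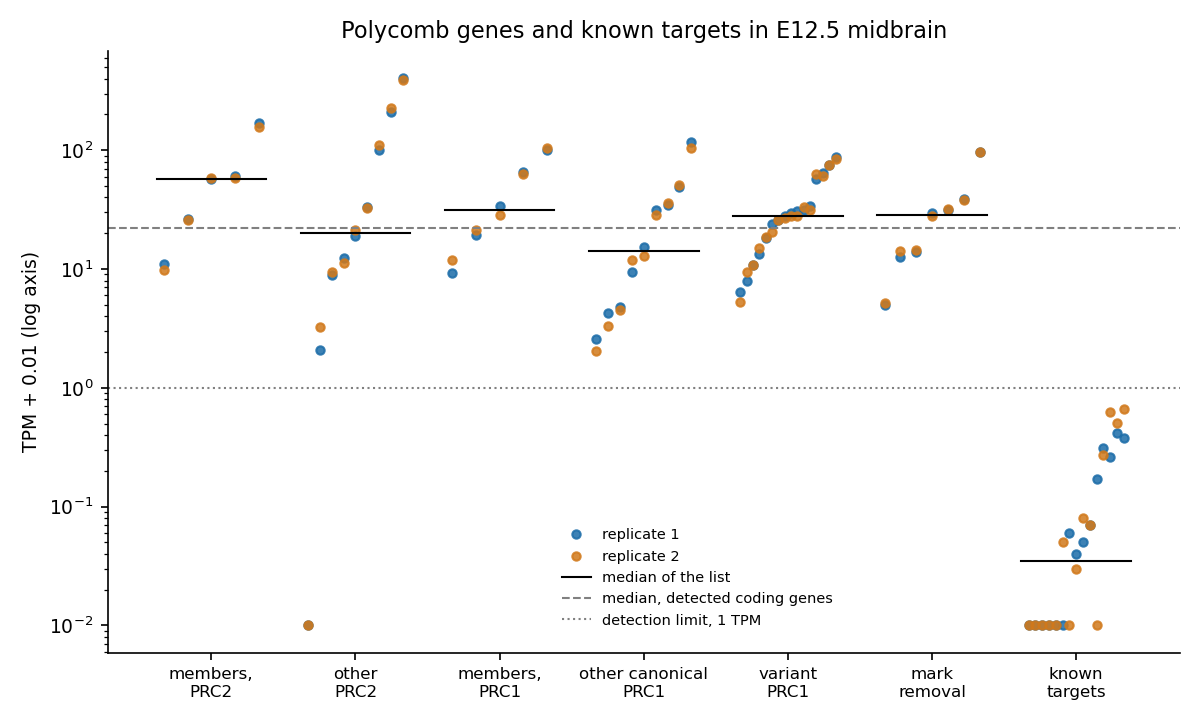
TPM plus 0.01 of each gene in both libraries on a log axis, by list, with list medians (bars), the median of detected coding genes (dashed, 22.2 TPM) and the detection limit (dotted, 1 TPM). Of the Polycomb genes all but Ezhip lie above the limit, and all 15 listed known targets lie below it.

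None of 15 genes known as Polycomb targets in other tissues reached 1 TPM. The list covers the cell cycle inhibitors Cdkn2a and Cdkn2b, regulators of heart, endoderm and mesoderm, and Hox genes. It was chosen with earlier results of these data known, so its low levels do not describe Polycomb targets in general. Cdkn2b stood at 0.25 TPM in replicate 1 and 0.62 in replicate 2. The deposited upper bounds did pass 1 TPM for Gata6 (1.53 and 1.17) and T (1.03 and 1.14). Gata6, at 0.30 and 0.26 TPM, stood below its own deposited lower bounds of 0.406 and 0.336. Cdkn2a, Hoxa9, Hoxb9, Hoxc8 and Hoxd11 had 0 counts in both libraries, and over all libraries of the list with 0 counts the level that 3 counts would give was 0.0534 to 0.207 TPM. The list median was 0.025 TPM, against 4.47 TPM for all protein-coding genes, of which 59.4% were detected. RNA levels alone do not show whether Polycomb occupies these genes.

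Like nearly all genes with at least 300 counts, the members differed by less than 2-fold between the embryo pools. Ratios were taken on expected counts scaled by TMM, each with a 95% exact binomial interval that covers counting error only. None of the 10 members differed by 2-fold or more, where 4.23% of the 19885 genes with at least 10 counts and 0.322% of the 11184 genes with at least 300 counts did. At 1.5-fold, which 7.19% of genes with at least 10 counts reached, the number of members was also 0. The share at 300 counts was not computed for 1.5-fold. Every member had at least 327 counts in each library, so 0 of 10 at 2-fold is near the background at 300 counts. The log2 ratio of replicate 1 over replicate 2 ran from -0.18 for Cbx8 to 0.26 for Bmi1, with a median of 0.051 against -0.0032 for all genes with at least 300 counts.

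Bmi1 had 2019 and 2175 counts, a log2 ratio of 0.26 with an interval of 0.17 to 0.34. Suz12 had 1611 and 1887 counts, a ratio of 0.14 (0.038 to 0.23). The intervals of Ezh2 at 0.059 (0.0075 to 0.11) and Cbx2 at 0.066 (0.0083 to 0.12) also excluded equality, but only just. All 4 were higher in replicate 1, and 0 were higher in replicate 2. The share of all genes beyond counting error was 32.3% at 10 counts and 41.6% at 300 counts, split into 20.8% higher in replicate 1 and 20.7% higher in replicate 2, so 4 of 10 members is near the background. The other 6 members lay within counting error. The largest of their ratios, that of Cbx8, had an interval of -0.39 to 0.025 on 327 and 477 counts.

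The scaling shifted these small differences together. With the total counts of annotated genes in place of TMM, 2 members, Bmi1 and Suz12, remained beyond counting error, against 32.6% of all genes at 10 counts and 42% at 300 counts. With ERCC counts, which moved the median of all genes to a log2 ratio of -0.28, 9 of 10 members were lower in replicate 1 and Bmi1 was within counting error at -0.014. Under that scaling 62.8% of all genes at 10 counts and 88.3% at 300 counts were beyond counting error, and 87.3% of genes at 300 counts were so with the lower level in replicate 1, so 9 of 10 members is again near the background. A scaling moves every gene by the same log2 amount, so the order of the members' ratios is the same under each. By TPM, the summed markers of other cell types were higher in replicate 2. So were those of midbrain (385 and 430), progenitors (2616 and 2634) and the cell cycle (1037 and 1056). Those of neurons were lower in replicate 2 (1995 and 1905). Genes within a list did not all move alike, so a sum can rest on few of them. Among midbrain markers Cnpy1 rose from 73.85 to 115.78 TPM in replicate 2, while Otx2 went from 144.56 to 140.91. Among progenitor markers Vim went from 904 to 934 and Fabp7 from 867 to 792. The summed level of the 6 mesenchyme markers was 1001 TPM in replicate 1 and 1419 in replicate 2, and that of the 6 blood markers 8058 and 9130, and their part in the members' ratios was not tested. With TMM, 14 of 40 other Polycomb genes with counts were higher in replicate 1 beyond counting error and 3 in replicate 2. Of all genes, 32.3% at 10 counts and 41.6% at 300 counts were beyond it, the latter split into 20.8% and 20.7%. With ERCC counts 33 of the 40 were beyond it, where 62.8% of all genes at 10 counts and 88.3% at 300 counts were. None of the 40 reached 2-fold with TMM, where 4.23% of all genes at 10 counts and 0.322% at 300 counts did. Phf19 came closest, lower in replicate 1 by a log2 ratio of -0.64 (-1.03 to -0.25) on 85 and 170 counts.

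**Figure D4:**
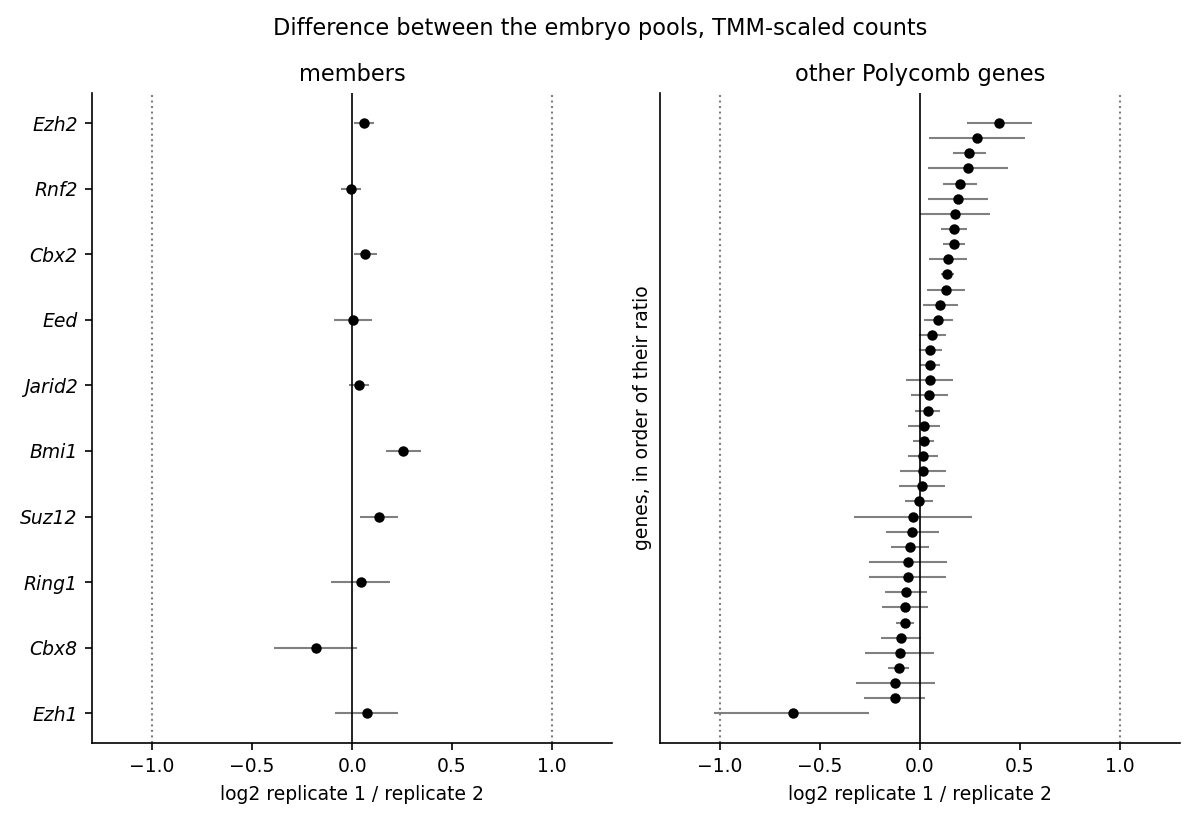
Log2 ratio of replicate 1 over replicate 2 for the 10 members (left) and 40 other Polycomb genes (right, in order of their ratio), as points with 95% counting intervals; dotted lines mark 2-fold. Members lie between -0.18 and 0.26, and no point passes a dotted line.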

How the data were processed

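Polyadenylated RNA was measured in 2 libraries of midbrain, 1 per embryo pool, with replicate numbers and pool sizes from the labels. Per the file headers, the deposited gene and transcript tables hold an expected count (estimated reads, unscaled), a TPM, scaled by effective length over all rows, and lower and upper TPM bounds, at a level not given in the sources used here. Transcript tables also hold the percent of a gene's TPM in each transcript, per the file headers. Tables were given against GENCODE M21 (used throughout) and M4, on mm10. The quantification tool and the strand setting are also not given in the sources used here. Estimates divide reads shared between transcripts by a model.

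Rows that name no gene (ERCC and other identifiers) held 4.02% and 3.38% of the counts and were left out of library sizes. TPM was used as deposited. Expected counts were rounded, scaled by TMM (edgeR 4.0.16, R 4.3.3) and compared between pools for genes with 10 or more counts in a library, using exact conditional binomial (Clopper-Pearson) 95% intervals (scipy 1.17.1). No molecular identifiers are recorded, so intervals and limits cover counting error only. A gene was called at 2-fold with an interval excluding equality; with 1 library per pool there was no test. The ratio procedure was also run on simulated counts that held counting error only. That run says nothing about differences between pools beyond counting error. Biotypes, exons and transcript sequences came from GENCODE M21 and promoters from RefSeq. All 118 list symbols were matched, 1 of them through a RefSeq synonym. Alternatives were the M4 tables, coding transcripts only, counts, a pseudocount, DESeq2 1.42.0 size factors, total and ERCC counts, other limits and each library alone.

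Named were all members, each other list's highest and lowest gene and any exception to its majority, and a member's leading transcript and the second where it held 10% or more in both libraries; others were named after their values were seen. Some list genes that this rule would name are not reported here. The members and lists were chosen with earlier results of these data known.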

Additional observations from a re-analysis of the deposited data

How the results depend on the processing

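The direction of all 4 paralog ratios held in every alternative run, and their size did not. With the M4 tables the log2 ratio of Ezh2 over Ezh1 was 3.75. With coding transcripts only, Rnf2 over Ring1 was 2.81, Cbx2 over Cbx8 3.91 and Bmi1 over Pcgf2 1.38. With complete coding transcripts only, an alternative chosen after seeing the data, the values were 3.62, 2.81, 3.91 and 1.38 in the order Ezh2, Rnf2, Cbx2 and Bmi1. Expected counts, which are not scaled by length, gave 3.17, 3.05, 3.64 and 2.31. A pseudocount of 1 TPM gave 3.84 for Ezh2 over Ezh1 and 1.10 for Bmi1 over Pcgf2. Each library alone gave 3.94 to 3.99, 2.29 to 2.38, 2.42 to 2.82 and 1.14 to 1.16.

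The number of members beyond counting error was 4 with TMM, 2 with total counts and 9 with ERCC counts. Of all genes, 32.3%, 32.6% and 62.8% at 10 counts and 41.6%, 42% and 88.3% at 300 counts were so, in that order. The number of members was 4 in the other alternatives, where the share of all genes ran from 22.3% (no filter) to 41.6% (300 counts). No member was called at 2-fold under any of them, where with TMM 0.322% of all genes at 300 counts were. At 1.5-fold with TMM, which called 7.19% of all genes, no member and 1 other Polycomb gene, Phf19, were called. At a limit of 10 TPM 8 members were detected. The share of all coding genes at that limit was not computed. Of them, 58.8% had a mean level below that of Ezh1 at 10.4 TPM. With M4, 6 of 10 members kept their place in the order of levels, and with complete coding transcripts 4 did. Bmi1 then took 27.0% of PCGF family TPM. No paired analysis was possible because there is 1 group. With 2 libraries the SD is itself poorly known, and transcript estimates rest on few reads for Ezh1 and Cbx8.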
